A study of Mus musculus with 18 samples.

Results

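H3K27ac regions found in WT bone marrow-derived macrophages (BMDM) alone were defined as stretches of the mouse genome under a WT H3K27ac peak and under no H3K27ac peak of mdx or mdxTLR4-/- BMDM. On chromosomes 1 to 19, peaks of the 3 lists were merged where they had 1 bp or more in common, which gave 21525 regions, and 5328 of them (24.8%) were found in WT alone. The members were thus chosen by the presence and absence of peaks, so their H3K27ac reads and their absence from the other lists are descriptions and not findings. Of the remaining regions, 6383 were held by all 3 lists, 3035 by mdx alone and 3171 by mdxTLR4-/- alone.

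The BMDM were grown for 7 days from marrow in medium with L929 cell supernatant and were left untreated. WT cells came from mice labelled C57BL6, mdx cells from mice labelled Dmdmdx-4Cv, which carry a mutation of the dystrophin gene, and mdxTLR4-/- cells from mdx mice that also lack the receptor TLR4, labelled Bl6/Bl10. The H3K27ac peaks came from 2 WT libraries, 2 mdx libraries, 1 mdxTLR4-/- library and 1 input library, with replicates merged into 1 peak list for each genotype. The labelled ages were 19 and 20 weeks for WT, 21 and 22 weeks for mdx, 23 weeks for mdxTLR4-/- and 18 weeks for the input. Over all libraries of both marks the labelled ages form an unbroken series from 6 to 23 weeks, with no age given to more than 1 library, so it is unsure that these labels give the true ages of the mice. Strain label, number of libraries, genotype and, where the labels hold, age cannot be told apart. Each genotype therefore has 1 list with a count of ChIP reads per peak, there is no spread between mice, and no test between genotypes was possible. The 95% intervals below are Wilson intervals of shares and order-statistic intervals of medians, and cover the spread over regions only. In such cultures fewer cells of a type and less signal per cell cannot be told apart.

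Acetylation of lysine 27 of histone H3 (H3K27ac) is laid down by the acetyltransferases CBP and p300 and marks active promoters and enhancers. In macrophages the transcription factor PU.1, together with AP-1 and C/EBP factors, opens many enhancers that then carry H3K27ac. Trimethylation of the same lysine (H3K27me3) is laid down by Polycomb repressive complex PRC2, marks repressed genes, and cannot sit on the same histone tail as the acetyl group.

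The sequences under some of the most heavily read members are shown first, because they differ in kind. Among the 15 members with the most WT reads, 3 were tandem arrays. Their central 300 bases, with the first repeat unit in capitals, are given 5′ to 3′ on the plus strand of GRCm38.p6. The Ercc6 member (chr14:32510551-32510850) repeats a unit of 35 bases, the Ccdc91 member (chr6:147552051-147552350) a unit of 50 bases and the Pfkp member (chr13:6608651-6608950) a unit of 60 bases.
Ercc6 region: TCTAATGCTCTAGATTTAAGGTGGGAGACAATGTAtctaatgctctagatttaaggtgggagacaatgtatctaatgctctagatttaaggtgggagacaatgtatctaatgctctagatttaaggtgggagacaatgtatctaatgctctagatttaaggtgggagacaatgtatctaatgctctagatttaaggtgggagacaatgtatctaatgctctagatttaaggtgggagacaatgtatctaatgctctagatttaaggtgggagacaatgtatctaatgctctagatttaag
Ccdc91 region: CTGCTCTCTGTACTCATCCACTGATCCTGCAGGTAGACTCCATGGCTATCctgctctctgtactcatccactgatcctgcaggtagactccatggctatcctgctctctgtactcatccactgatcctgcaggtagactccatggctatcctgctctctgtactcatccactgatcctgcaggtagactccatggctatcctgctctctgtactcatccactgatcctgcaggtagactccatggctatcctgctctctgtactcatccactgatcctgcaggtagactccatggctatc
Pfkp region: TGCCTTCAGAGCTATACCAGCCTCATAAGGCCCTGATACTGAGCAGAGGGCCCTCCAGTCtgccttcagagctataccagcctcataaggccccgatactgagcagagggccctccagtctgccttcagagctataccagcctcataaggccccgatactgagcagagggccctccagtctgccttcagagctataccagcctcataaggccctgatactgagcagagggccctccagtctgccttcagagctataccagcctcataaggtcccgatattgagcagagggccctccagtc

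Other members with many reads lay at gene starts and held no such array. The central 300 bases of the Stap1 member (chr5:86072851-86073150, plus strand) had a GC content of 35.7% and 1 CpG, and held none of the 10 motifs searched. They lie downstream of the Stap1 start at chr5:86071746, so they are not a promoter and not like the promoter windows that follow. The promoters of Frs2 (chr10:117148425-117148724, minus strand) and Ubac2 (chr14:121878356-121878655, plus strand), taken from RefSeq on GRCm38.p6 as 250 bases before to 50 bases after the start, had 24 and 32 CpGs and a GC content of 72% and 66.3%. Capitals mark motif matches on either strand. In the Frs2 promoter these are 2 SP/KLF motifs (GGGCGG) and 1 ETS motif (CCGGAAGT), and in the Ubac2 promoter NRF1 (GCGCATGC, in part overlapping itself on the other strand), SP/KLF and PU.1 (GAGGAAGT) motifs.
Stap1 region: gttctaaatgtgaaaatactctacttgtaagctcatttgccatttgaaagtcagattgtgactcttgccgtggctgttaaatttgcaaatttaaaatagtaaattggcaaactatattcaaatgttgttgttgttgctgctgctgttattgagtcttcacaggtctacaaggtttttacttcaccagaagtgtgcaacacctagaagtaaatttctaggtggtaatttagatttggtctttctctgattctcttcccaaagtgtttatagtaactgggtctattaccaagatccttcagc
Frs2 promoter: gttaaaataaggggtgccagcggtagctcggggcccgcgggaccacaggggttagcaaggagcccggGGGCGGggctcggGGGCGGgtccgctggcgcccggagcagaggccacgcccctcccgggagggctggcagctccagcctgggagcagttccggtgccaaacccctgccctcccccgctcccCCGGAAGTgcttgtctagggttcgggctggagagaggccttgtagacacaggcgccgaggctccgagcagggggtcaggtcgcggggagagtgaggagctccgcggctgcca
Ubac2 promoter: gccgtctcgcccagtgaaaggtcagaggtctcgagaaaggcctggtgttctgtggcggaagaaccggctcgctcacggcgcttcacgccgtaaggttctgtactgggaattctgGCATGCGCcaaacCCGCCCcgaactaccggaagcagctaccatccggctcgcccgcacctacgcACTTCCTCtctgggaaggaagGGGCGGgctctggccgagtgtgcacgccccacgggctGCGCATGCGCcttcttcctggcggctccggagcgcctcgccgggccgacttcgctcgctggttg

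The members were lightly read. Each of them was 1 WT peak. A member held a median of 7 WT reads (7 to 8), with 5 at the lowest, 11 at the 90th percentile and 34 at the highest. Regions of all 3 lists held a median of 20 WT reads (20 to 21). Members had a median length of 1600 bp and a read density of 5 reads per kb, against 3000 bp and 9.44 reads per kb for regions of all 3 lists. The 3000 bp is taken over the merged peaks of the 3 lists, whereas a member is 1 peak, so these lengths are unlike measures. Density was taken over WT peaks only. Together the members covered 9.61 Mb of the 31.7 Mb under WT peaks and held 16.5% of the 266063 WT reads in peaks. In 70.9% of members (69.6 to 72.1) the count was at most 2 reads above the lowest count in the WT list at the same length. The same held for 8.27% (7.61 to 8.98) of regions of all 3 lists with a single WT peak.

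The share of WT regions found in WT alone fell with the reads they held. It was 81.9% (79.8 to 83.9) of the 1395 regions with 5 to 6 WT reads, 56.1% (54.2 to 58) of those with 8 to 9, 30.6% (29 to 32.2) of those with 10 to 14 and 7.86% (6.65 to 9.27) of those with 15 to 19. Of the 3595 regions with 20 or more WT reads, 30 were members, or 0.834% (0.585 to 1.19). The mdx and mdxTLR4-/- lists fell in the same way with their own reads. There, 70.7% and 60.2% of regions with 5 to 6 reads were found in that list alone, and 5 of 2269 and 0 of 1898 regions with 20 or more reads, the latter of which allows a share of up to 0.202%. In all, 36.2% of WT regions were found in that list alone, against 26.7% of mdx regions and 26.8% of mdxTLR4-/- regions. As library depth is unknown, equal counts in 2 lists need not stand for equal signal, and the WT list was the longest, with 14962 peaks against 11581 and 12204.

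**Figure D1:**
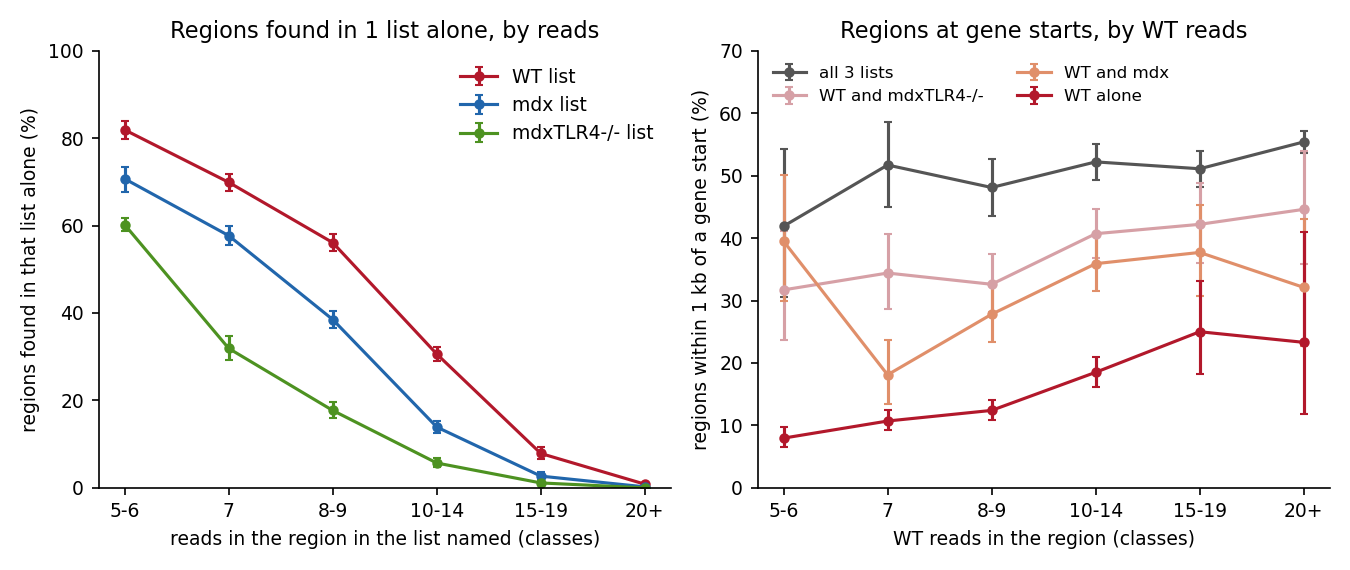
Left, the percent of regions found in 1 list alone (y axis) by the reads they held in that list (x axis, classes) for the WT, mdx and mdxTLR4-/- lists; right, the percent of regions within 1 kb of a protein-coding gene start by WT reads, for the 4 sets of regions that hold a WT peak. Points are shares and bars 95% Wilson intervals; the WT line falls from 81.9% to 0.834%, and WT-alone regions lie below the regions of all 3 lists in every class of reads.

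At the limit of the rule, 43 members were directly adjacent to a mdx or mdxTLR4-/- peak with 0 bp between, and held a median of 8 WT reads. On the other side, 88 of the 9396 regions that share a WT peak with another list did so over 200 bp, the width of 1 window of the peak caller, and also held a median of 8 WT reads. The adjacent members with most reads were a stretch 37682 bp from the start of Gm21119 (34 reads), the start of the tubulin gene Tubb5 (18 reads), the start of Msrb1, a methionine sulfoxide reductase (16 reads), the shared start of Erg28 and Ttll5 (15 reads) and a stretch 95172 bp from Ogfrl1 (15 reads). Most members had no peak of the other lists within 5 kb. The median distance to the nearest mdx or mdxTLR4-/- peak was 34200 bp, with the middle of the distribution between 8800 and 112600 bp, and 936 members (17.6%) had such a peak within 5 kb.

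Members lay mainly away from gene starts. Of the 5328, 663 touched the 1 kb on either side of the start of a protein-coding gene, or 12.4% (11.6 to 13.4), beside 28.6% of all merged regions and 53.3% (52.1 to 54.5) of regions of all 3 lists. The share depended on how weak and repetitive peaks were treated. With peaks under 10 reads left out of the 3 lists before merging, 30.7% of the 2628 regions then found in WT alone lay at gene starts. Only 1144 members held 10 or more WT reads, so many of those 2628 regions were not members. With regions of at least 50% soft-masked bases left out, the share was 21.1% of the remaining members. A further 3.02% of members lay within 5 kb upstream of a gene, 8.3% touched an exon, 29.2% lay in introns and 47% (45.7 to 48.3) lay outside genes. Genes here and below are protein-coding genes unless all genes are named, so a region in a non-coding gene can count as outside genes. The sets most like the members in this were the other regions found in 1 list, at gene starts in 10.3% (9.28 to 11.4) for mdx alone and 15.3% (14.1 to 16.6) for mdxTLR4-/- alone. The median distance to the nearest gene start was 33366 bp (31020 to 35654) for members, 45703 bp for mdx alone, 27767 bp for mdxTLR4-/- alone and 0 bp for regions of all 3 lists.

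**Figure D2:**
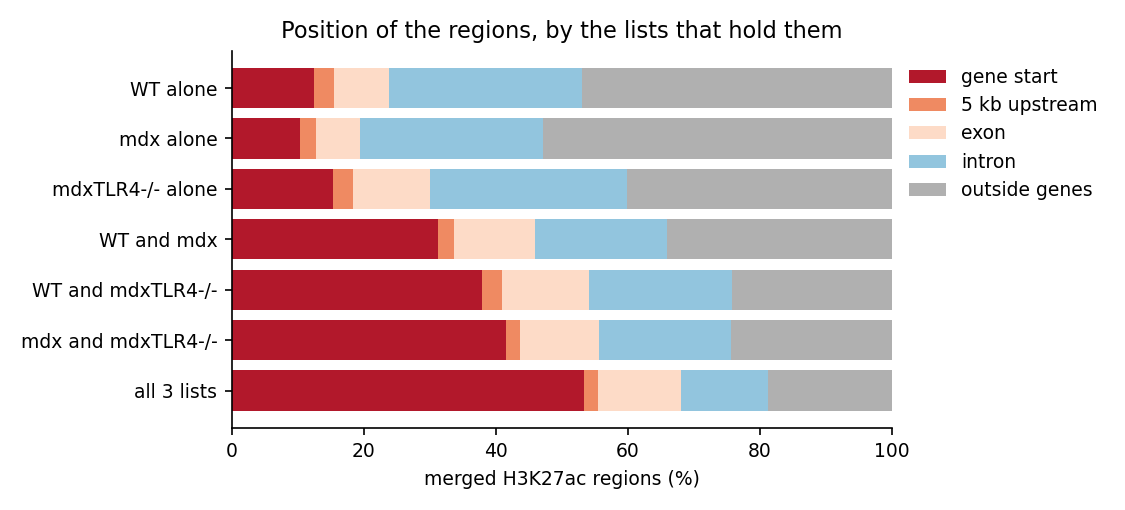
Percent of merged H3K27ac regions (x axis) by position, for the 7 sets of lists that hold them (y axis): within 1 kb of a protein-coding gene start, up to 5 kb upstream, touching an exon, in an intron, or outside genes. All positions refer to protein-coding genes. Gene starts take 12.4% of the WT-alone bar and 53.3% of the bar of all 3 lists.

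The lower share at gene starts than in regions of all 3 lists was also seen at equal reads and at equal length. With 7 WT reads, 10.7% (9.26 to 12.4) of members and 51.7% (44.9 to 58.6) of regions of all 3 lists lay at gene starts. With 10 to 14 WT reads the shares were 18.5% (16.2 to 21) and 52.2% (49.3 to 55), and with 20 or more 23.3% (11.8 to 40.9) and 55.4% (53.7 to 57.1). Among regions of 1200 to 2000 bp the shares were 17.4% (15.8 to 19.2) and 47.9% (45.2 to 50.6). In none of these classes did the intervals of members and of regions of all 3 lists overlap. At 1200 to 2000 bp the share was also low in mdx alone (15.2%, 13.1 to 17.7) and mdxTLR4-/- alone (15.9%, 14.2 to 17.9). With 20 or more WT reads it was 32.1% (22.7 to 43) in regions of WT and mdx. In regions of WT and mdxTLR4-/- it was 44.6% (35.8 to 53.9). Both of these intervals overlapped that of members.

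Many members consisted of repeat sequence, which the reference genome marks by soft-masking. In 1663 members, or 31.2% (30 to 32.5), at least 95% of the bases were soft-masked, against 39.4% (37.7 to 41.1) for mdx alone, 10.2% (9.24 to 11.4) for mdxTLR4-/- alone and 0.595% (0.434 to 0.816) for all 3 lists. Such regions made up 13.3% of all WT regions, 13% of mdx regions and 3.62% of mdxTLR4-/- regions. The mdxTLR4-/- list differs from the others in number of libraries, genotype and strain label, which cannot be told apart here. The 1663 members were long and thinly covered, with a median of 2600 bp, 8 WT reads and 3.18 reads per kb, and 73.2% of them lay outside genes. The 3098 members with under 50% soft-masked bases had a median of 1200 bp, 7 WT reads and 6.2 reads per kb, and 21.1% (19.7 to 22.5) of them lay at gene starts, beside 54.5% (53.3 to 55.8) of the like regions of all 3 lists. A read from a repeat can match several places in the genome, and Bowtie2 at its default settings, which the authors used, reports 1 best place and draws among equal ones. Whether such reads were later removed is not given in the sources used here. The part of this in the absence of members from the other lists was not tested.

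**Figure D3:**
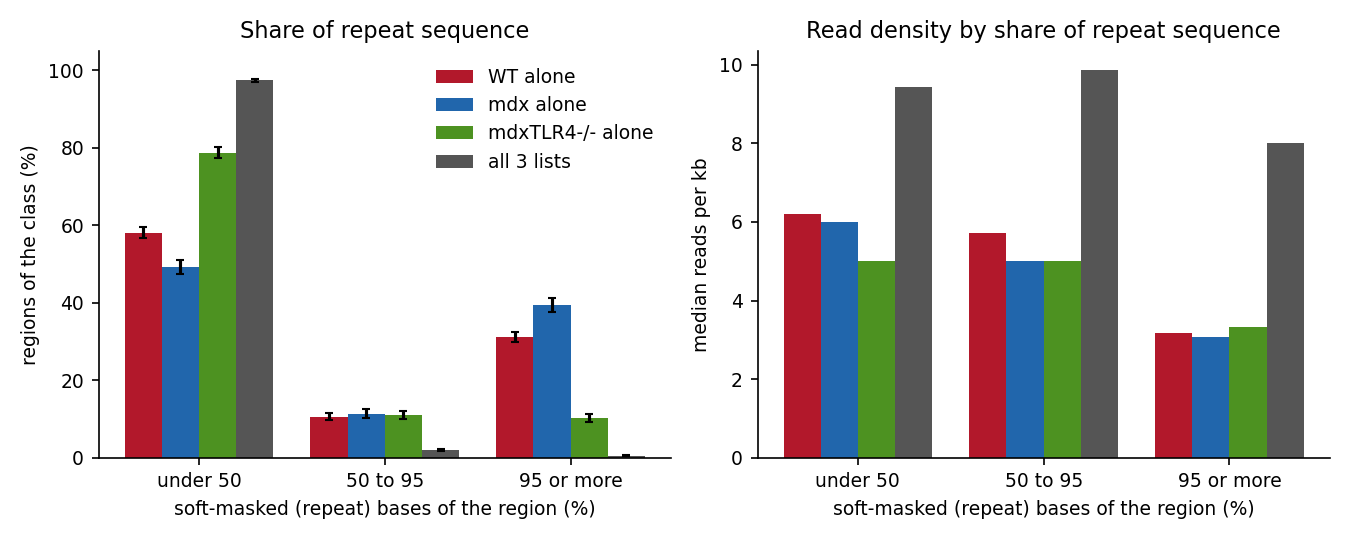
Left, percent of regions (y axis, bars with 95% Wilson intervals) by the percent of their bases that are soft-masked as repeats (x axis, 3 classes), for regions found in 1 list alone and in all 3; right, the median reads per kb of the same classes, read in the list that holds them (WT for all 3). Regions with 95% or more repeat bases make up 31.2% of WT-alone regions and 0.595% of regions of all 3 lists, and have the lowest density in each set.

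Tandem arrays such as those shown above were rare. In 46 members (0.863%, 0.648 to 1.15) at least 80% of the central 300 bases were equal to the base 1 repeat unit further on, against 39 regions of mdx alone (1.29%), 47 of mdxTLR4-/- alone (1.48%) and 15 of all 3 lists (0.235%). They were 3 of the 30 members with 20 or more WT reads. The Ercc6 member was not soft-masked at all, so that soft-masking did not catch every array.

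Members were poorer in GC than regions of all 3 lists away from gene starts, but not at them. The median GC content of members was 43.6% (43.4 to 43.8), against 48.9% (48.7 to 49) in regions of all 3 lists, and the ratio of observed to expected CpG was 0.227 against 0.4. The low values were not particular to members. GC content was 42.7% in mdx alone and 43.9% in mdxTLR4-/- alone, and the CpG ratio 0.222 and 0.208. At gene starts the medians in members and in regions of all 3 lists were 52.8% and 50.8% GC and CpG ratios of 0.581 and 0.566. Away from gene starts the GC content was 42.7% in members and 46.7% in regions of all 3 lists, the CpG ratio 0.214 and 0.228, and the soft-masked share 45.1% and 19.8%.

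Motifs were counted on both strands in the central 300 bp of each region, as exact matches of short words. SP/KLF (GGGCGG) was found in 7.77% (7.08 to 8.52) of members, 26.1% (25 to 27.2) of regions of all 3 lists and 15.1% of all regions. The share was 6.43% in mdx alone and 9.59% in mdxTLR4-/- alone. At gene starts the shares in members and in regions of all 3 lists were 34.1% (30.6 to 37.8) and 39.7% (38.1 to 41.4), and away from them 4.03% and 10.5%. The ETS word (CCGGAAGT) was found in 0.638% of members and 2.62% of regions of all 3 lists, and NRF1 (GCGCATGC) in 0.619% and 1.47%. Words of the macrophage enhancer factors were found in members at shares near those in all regions. PU.1 (GAGGAAGT) was found in 3.49% of members and 3.95% of all regions, AP-1 (TGANTCA) in 9.37% and 9.13%, and C/EBP (TTGCNNAA) in 13.5% and 12.6%. Away from gene starts PU.1 was found in 3.75% (3.24 to 4.34) of members and 5.3% (4.55 to 6.16) of regions of all 3 lists, and AP-1 in 9.88% (9.06 to 10.8) and 12.7% (11.6 to 14). C/EBP went the other way, with 13.5% (12.6 to 14.4) of members and 10.9% (10.1 to 11.6) of regions of all 3 lists at any position. This was not particular to members, as mdx alone and mdxTLR4-/- alone also had 13.5% each. Away from gene starts the C/EBP shares were 14% (13 to 15) of members and 12.7% (11.6 to 14) of regions of all 3 lists, with overlapping intervals. The IRF word (GAAANNGAAA) was found in 5.33% of members and 4.79% of regions of all 3 lists, the NF-kappaB word (GGGANNNTCC) in 2.91% and 4.26%, the E-box (CACGTG) in 4.43% and 5.86%, and the CRE (TGACGTCA), which differs from AP-1 by 1 added base, in 0.544% and 1.07%. Over the promoters of RefSeq, which have the same length, SP/KLF was found in 35.9%, ETS in 4%, NRF1 in 2.8% and PU.1 in 3.28%. A match describes the sequence and does not show binding.

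The members with the most WT reads were of several kinds. The highest count, 34 WT reads over 8800 bp (chr8:20652601-20661400), lay outside genes and 0 bp from a mdx peak, and 30 reads lay over 9200 bp on the same chromosome, 416558 bp from the start of Gpm6a. Both were long and thin, with 3.86 and 3.26 reads per kb. A pair of members lay at Mbnl1, a regulator of RNA splicing. The first held 28 WT reads 2830 bp upstream of the start (chr3:60467001-60470000), with mdx and mdxTLR4-/- peaks at 1400 and 1200 bp. The second held 27 WT reads over an exon (chr3:60498401-60503400), with peaks of the other lists at 3200 and 2800 bp. These members therefore lay beside regions that the other genotypes also held.

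The 3 tandem arrays held 27 WT reads in an intron of Ccdc91, 26 in an intron of Pfkp, a phosphofructokinase, and 25 upstream of Ercc6, a factor of transcription-coupled DNA repair. The Ercc6 member was 600 bp long and had 41.7 reads per kb, against 3.26 to 10.4 in the others of these 15. Its nearest mdx and mdxTLR4-/- peaks were 340200 and 307600 bp away. Another pair on chromosome 16, with 28 and 27 WT reads, had 56.6% and 66.2% soft-masked bases and lay 237442 and 474242 bp from the olfactory receptor gene Olfr161.

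The remaining members of these 15 lay in genes, at a gene start or far from any gene. A stretch with 25 WT reads (chr15:5347401-5349800, 10.4 reads per kb) lay 103214 bp from Ptger4, which encodes the prostaglandin E2 receptor EP4, and 64400 bp from the nearest peak of the other lists. A member with 23 WT reads (chr7:43529201-43534000) lay in Cd33, a sialic acid-binding lectin of myeloid cells, and one with 23 WT reads in Rapgef6, an activator of Rap GTPases. The start of Stap1, an adaptor protein of haematopoietic cells, held 22 WT reads, with mdx and mdxTLR4-/- peaks no closer than 8800 and 25800 bp. Other stretches held 24 WT reads 182726 bp from Adgb and 23 WT reads 81845 bp from Bcas1.

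The starts of 744 of 20807 protein-coding genes (3.58%) lay within 1 kb of a member, and at 714 of them no mdx or mdxTLR4-/- peak touched that window. As a member touches no such peak by the rule, the count of 714 is largely set by the choice of members. The 663 members at gene starts held a median of 8 WT reads and at most 22. The most reads after Stap1 were at Frs2, the docking protein of fibroblast growth factor receptors, with 22 WT reads over 6000 bp and the nearest peak of another list 64400 bp away. Counts of 20 WT reads were found at Arhgap24, a GTPase-activating protein of Rac, at Kmt5c, a methyltransferase of histone H4 lysine 20, at Paqr7, a membrane progestin receptor, at Tmem273 and at Ubac2. One member of 19 WT reads held the starts of 3 genes, Atf5, a transcription factor of the stress response, Il4i1, a secreted amino acid oxidase, and Nup62, a nuclear pore protein, and the nearest mdx and mdxTLR4-/- peaks were 21800 and 20800 bp away. Man1a2, a mannosidase of the Golgi, had 19 WT reads and a mdxTLR4-/- peak at 5000 bp. Counts of 18 WT reads were found at Cenpc1, a centromere protein, at Gars, a glycyl-tRNA synthetase, at the shared start of Cbr1 and Setd4, and at the shared start of Borcs8, Mef2b and Rfxank, of which Rfxank regulates MHC class II genes. Members at the starts of Kpna3, Pex5, Tubb5 and Ube2d2a also held 18 WT reads, and these 4 genes, with Setd4, Mef2b and Rfxank, fell outside the 15 genes with the most reads only by the order of names among ties. RefSeq promoters were matched for 12 of the 15, and 8 of the 12 held the SP/KLF word, beside 35.9% of all promoters. The 12 include Atf5, Il4i1 and Nup62, whose starts lie in the same member. In the central 300 bp of all members at gene starts the share was 34.1%, below the 39.7% of regions of all 3 lists there.

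In 2584 genes (12.4%) a member lay in the gene body or the 5 kb upstream, and in 1053 of them (5.06% of genes) no mdx or mdxTLR4-/- peak lay in that window. As a member touches no such peak by the rule, the count of 1053 is in part set by the choice of members. Among these genes the most WT reads were in Dera, an aldolase of deoxyribose phosphate, with 4 members and 31 WT reads in all, in Lpcat3, which remodels phospholipids, with 31 WT reads, and in Nsd1, a methyltransferase of histone H3 lysine 36, with 31 WT reads. In Lpcat3 the reads were divided between the start (11) and an intron (20). In Nsd1 the 4 members held 7, 9, 5 and 10 WT reads, and the last lay at the start of the neighbouring gene Prelid1. The members with 9 and 5 WT reads were 200 bp long, with 58.5% and 75.5% soft-masked bases. Frs2 followed with 28 WT reads and Wdr36, a factor of ribosome assembly, with 26.

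Most of the genes with the most members were long. Gm20388, annotated over 4434882 bp, held 18 members, and Fgfr2, annotated over 2960900 bp, held 8. Pde4d and Ctnna3 held 6 each over 1503514 and 1573570 bp, and Foxp1, Zfhx3 and Camta1 held 5 each over 597384 to 1018987 bp. C130026I21Rik held 7 over 277877 bp, where 7 mdx and 4 mdxTLR4-/- peaks also lay. Ubac2 is shorter, at 142415 bp, and held 6 members with 67 WT reads in all, 1 of them at the start of Gpr183, an oxysterol receptor that lies within it. The mdx and mdxTLR4-/- lists held 3 and 4 peaks in the same window, with 40 and 45 reads. Tbc1d2b, at 68778 bp, held 5 members with 7 to 11 WT reads.

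Gene lists were chosen with earlier results of these data known, and their counts are given beside 3.58% of all protein-coding genes with a member at the start and beside 18.9% with peaks of all 3 lists there. A member at the start requires a WT peak there, which 5977 of the 20807 genes had. The share of a list with members therefore also depends on how many of its starts held a WT peak. Of 24 genes of macrophage identity, 21 had a WT peak at the start, 18 had peaks of all 3 lists and 0 had a member at the start, although 4 had one in the gene body or the 5 kb upstream. WT peaks were at the start of 0 of 18 lymphocyte genes, 2 of 18 granulocyte and mast cell genes, 1 of 15 fibroblast genes, 0 of 14 skeletal muscle genes and 2 of 13 erythroid and megakaryocyte genes. A member lay at 1 start among these, that of Cebpe, a factor of granulocyte maturation, with 10 WT reads.

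Among genes of TLR4 and NF-kappaB signalling, 25 of 34 had a WT peak at the start, 20 had peaks of all 3 lists and 3 had a member there. They were Ikbkb, the kinase IKK beta, with 12 WT reads, Tnip1, an inhibitor that binds A20, with 7, and Lbp, which carries lipopolysaccharide, with 6. At Ikbkb the nearest peaks of both other lists were 46400 bp away, whereas at Tnip1 they were 5400 bp away. Of 27 AP-1 and early response genes, 0 had a member and 12 had peaks of all 3 lists. Among cytokines and chemokines 1 of 35 had a member, Il10, the anti-inflammatory cytokine, with 12 WT reads over 2400 bp (chr1:131018801-131021200) and peaks of both other lists 2600 bp away. Among interferon response genes 2 of 39 had a member, Rsad2 with 10 WT reads and Ifit2 with 6, both products being antiviral, and 27 had peaks of all 3 lists. The nearest mdx and mdxTLR4-/- peaks were 12000 and 2600 bp away at Rsad2, and 1400 and 1600 bp away at Ifit2.

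Antigen presentation had the highest share of the lists, with 4 of 24 genes, while 18 had a WT peak at the start and 12 had peaks of all 3 lists. Over all protein-coding genes, 744 had a member at the start and 5977 a WT peak there. The start of Cd86, a co-stimulatory ligand, held 9 WT reads in 400 bp, with mdx and mdxTLR4-/- peaks 33400 and 45200 bp away. Nlrc5, the activator of MHC class I genes, had 7 WT reads, and H2-DMb1, which loads peptides on MHC class II, and Cd40, a co-stimulatory receptor, had 6 each. The Cd40 member lay wholly under H3K27me3 of WT, and H3K27me3 peaks of mdx and mdxTLR4-/- covered 50% and 83.3% of it.

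Alternative activation and scavenger receptors had a member at 1 of 28 starts, that of the nuclear receptor Ppard (10 WT reads). Lipid handling had 1 of 28, Acsl1, which activates fatty acids (9 WT reads), and lysosome and phagosome 1 of 38, the glucosidase Gaa (9 WT reads). In glycolysis, citrate cycle and mevalonate the count was 3 of 39, with Acly, the citrate lyase, at 10 WT reads, the glucose phosphate isomerase Gpi1 at 8 and the mevalonate kinase Mvk at 7. At Gpi1 the nearest mdx and mdxTLR4-/- peaks were 2200 and 2000 bp away. Ribosome and translation factors had 2 of 56, Rplp1 with 14 WT reads and Rpl6 with 9. In cell cycle and DNA replication the count was 4 of 45, the helicase subunit Mcm6 (9 WT reads), Cdk2 (8), the ribonucleotide reductase subunit Rrm1 (8) and Anapc1 (7). Of the 45 genes, 22 had a WT peak at the start and 15 had peaks of all 3 lists. Fibrosis and matrix had 1 of 42, the TGF-beta mediator Smad4 (10 WT reads), and the writers and erasers of H3K27 marks 0 of 27.

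Counted over the gene body and the 5 kb upstream, where 12.4% of all protein-coding genes held a member, the counts of most lists were higher. A member lay there in 4 of 24 macrophage identity genes (16.7%), 6 of 27 writers and erasers of H3K27 marks (22.2%), 7 of 24 antigen presentation genes (29.2%), 6 of 34 genes of TLR4 and NF-kappaB signalling (17.6%) and 6 of 39 interferon response genes (15.4%). The share was 21.4% in fibrosis and matrix, 21.1% in lysosome and phagosome, 20.5% in glycolysis, citrate cycle and mevalonate, 17.9% in alternative activation, 17.8% in cell cycle, 14.3% in lipid handling and 12.5% in ribosome and translation. It was 5.71% in cytokines and chemokines and 3.7% in AP-1 and early response factors. Among markers of other cells the counts were 0 of 18 for lymphocytes, 1 of 18 for granulocytes and mast cells, 2 of 15 for fibroblasts, 2 of 14 for skeletal muscle and 0 of 13 for erythroid cells and megakaryocytes. The counts were not corrected for gene length.

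The lists that the study drew up gave 37 of 679 pro-inflammatory genes (5.45%), 38 of 762 anti-inflammatory genes (4.99%) and 2 of 59 pro-fibrotic genes (3.39%) with a member at the start, beside 3.58% of all genes. In the gene body or the 5 kb upstream, 135 (19.9%), 163 (21.4%) and 13 (22%) held one, beside 12.4% of all genes. These counts too were not corrected for gene length. The study itself chose these lists, so they are not independent evidence of a direction. A WT peak of any kind was at the start in 338 of the 679 and 317 of the 762, against 5977 of all 20807 genes. The pro-inflammatory genes with the most WT reads were Arhgap24 (20), Il4i1 (19), Msrb1 (16) and the transporter Abcc5 (14). The anti-inflammatory genes were Atf5 (19, in the same member as Il4i1), the nuclease Dnase2a (16), the thromboxane synthase Tbxas1 (16) and the mitotic kinase Ttk (16), and the pro-fibrotic genes Smad4 and the transcription factor Tcf3 (7). A mdxTLR4-/- peak lay 1600 bp from the Tbxas1 member, and the body and 5 kb upstream of Tbxas1 held 6 mdx and 7 mdxTLR4-/- peaks.

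**Figure D4:**
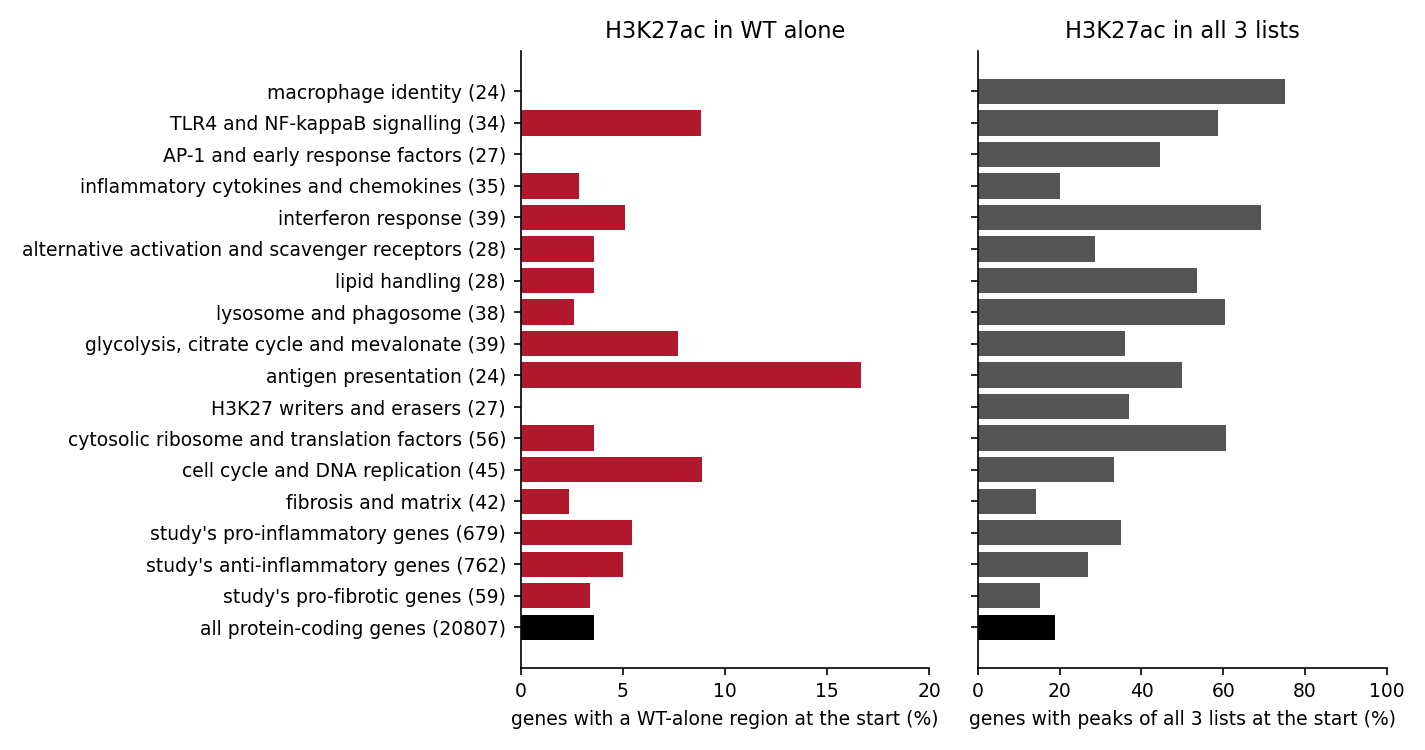
Percent of genes with a region found in WT alone within 1 kb of the start (left, x axis to 20%) and with H3K27ac peaks of all 3 lists there (right, x axis to 100%), for each gene list (y axis, number of genes found in brackets) and all protein-coding genes (black). Macrophage identity genes are at 0 of 24 on the left and 18 of 24 on the right, and antigen presentation is at 4 of 24 on the left.

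H3K27me3 was measured in other libraries of the same 3 genotypes, 2 each with 2 inputs, and was not used to choose the members. Their labelled ages were 12 and 13 weeks for WT, 14 and 15 weeks for mdx, 16 and 17 weeks for mdxTLR4-/- and 6 to 11 weeks for the inputs, unlike those of the H3K27ac libraries. Few members carried it. A WT H3K27me3 peak touched 203 members, or 3.81% (3.33 to 4.36), beside 3.29% of all merged regions, a mdx peak 178 (3.34%, 2.89 to 3.86, beside 2.95%) and a mdxTLR4-/- peak 187 (3.51%, 3.05 to 4.04, beside 2.75%). The intervals of the 3 genotypes overlapped. Regions of all 3 lists were touched less often, by WT H3K27me3 in 1.74% (1.45 to 2.09), and regions of mdx alone and mdxTLR4-/- alone in 5.07% (4.35 to 5.91) and 5.11% (4.4 to 5.93). The share fell with H3K27ac reads, from 7.17% of members with 5 to 6 WT reads to 2.13% of those with 10 to 14 and 0 of the 30 with 20 or more.

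H3K27me3 present in a mutant genotype but not in WT was found at few members, at shares close to those of all merged regions. H3K27me3 of mdx and mdxTLR4-/- but not of WT touched 15 members (0.282%, 0.171 to 0.464), beside 0.251% of all merged regions. H3K27me3 of mdx alone touched 26 (0.488%, 0.333 to 0.714, beside 0.53%), that of mdxTLR4-/- alone 33 (0.619%, 0.441 to 0.869, beside 0.455%), and that of WT alone 33 (0.619%, 0.441 to 0.869, beside 0.753%). A further 106 members (1.99%, beside 1.68%) touched H3K27me3 of all 3 genotypes and 5051 (94.8%, beside 95.5%) touched none. The most WT H3K27ac reads among the 15 were 17 in an intron of Zcchc14, within the span annotated as Gm20388 (chr8:121642601-121644000), where mdx and mdxTLR4-/- H3K27me3 peaks of 438 and 2876 reads each reached over 14.3% of the member. A member of 9 WT reads lay in an intron of the agouti gene a. The member near Eapp, with 8 WT reads, was covered to 66.7% by mdx and 100% by mdxTLR4-/- H3K27me3, and the member near Dyrk1b, with 8 WT reads, to 100% and 20%. Among the 33 touched by H3K27me3 of WT alone the most WT H3K27ac reads were near Tmem200b (16), in an intron of Ptch1, the Hedgehog receptor (13), near Gm10260 (12), near Jazf1 (11) and in Sel1l3 (11), and H3K27me3 of WT covered 4.55% to 20% of these 5.

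Over the chromosomes, members numbered from 122 on chromosome 18 to 444 on chromosome 2, or 13.5 to 25.2 per 10 Mb, and made up between 19.8% and 30.4% of the regions of a chromosome. The median distance from one member to the next nearest was 122300 bp, and 9.4% had another within 10 kb. The median distance from a member to the nearest region of all 3 lists was 120900 bp, and 13.7% (12.8 to 14.6) had one within 10 kb. For mdx alone the values were 179000 bp and 9.88%, and for mdxTLR4-/- alone 91200 bp and 13.2%. Whether members lay nearer to shared regions or farther from them than random positions was not tested.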

How the data were processed

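H3K27ac and H3K27me3 were measured by ChIP-seq on chromatin cut with micrococcal nuclease, with the Active Motif antibody to H3K27ac. The authors mapped reads to mm10 with Bowtie2 at default settings, merged replicates and called peaks with SICER2 (window 200 bp, gap 600 bp, FDR under 0.01). The authors state these steps for H3K27me3 and that H3K27ac was analysed by the same general steps. The submitters' processing notes also list cutadapt 1.15, CASAVA 1.8, Bowtie2 2.3.4 and SICER 2.0. Each deposited peak carries the count of ChIP reads in it as a whole number, not scaled for depth or length. Library depth and the treatment of duplicate reads are not given in the sources used here.

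Ends of peaks were read as inclusive. Genes were the 51229 genes of GENCODE vM21 on chromosomes 1 to 19, 20807 of them protein-coding, and sequence came from GRCm38.p6, the build of mm10. Positions and distances to gene starts used the protein-coding genes only. Members and gene lists were chosen with earlier results of these data known. Named were the 15 members with most WT reads, the 15 genes with most WT reads at the start, the 10 genes with most members, up to 4 genes per list, 5 members per class of H3K27me3, the 5 genes with most WT reads and no mdx or mdxTLR4-/- peak, and the members nearest to the limit of the rule. One member named by these rules is not reported here. No test was run, since each list pools its replicates. Computations used Python 3.11.15, numpy 2.4.6, pandas 2.3.3, scipy 1.17.1 and matplotlib 3.10.9, and were tested on simulated peak lists.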

Additional observations from a re-analysis of the deposited data

Results flagged for a closer look

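Chromosomes X and Y lay outside the rule that chose the members, and their H3K27ac regions of WT alone are given here for that reason only. They numbered 268 of the 718 merged regions on chromosome X (37.3%) and 214 of the 404 on chromosome Y (53%), with a median of 7 WT reads on each. The corresponding share on chromosomes 1 to 19 was 24.8%.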

How the results depend on the processing

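No paired analysis was possible because each list pools its replicates. Of 69 values under 12 alternatives, 35 stayed within the interval of the reported value (or within 1.5 times a count) and 34 moved. Leaving out peaks under 10 reads gave 2628 regions (26.2% of all), a median of 12 reads, 30.7% at gene starts and 2.02% and 1.18% touching WT and mdx H3K27me3. Leaving out peaks under 1 kb gave 25.6% of all regions, 15.6% at gene starts, and 2.97% and 2.38%. With 11581 peaks per list by density there were 3057 regions (16.2%), with 17.1% at gene starts, and 4.61% and 4.22%. By reads there were 2882 (15.5%), with a median of 9 reads, 15.5% at gene starts, and 2.43% and 1.73%. Without the mdxTLR4-/- list, WT regions with no mdx peak were 38.2% of all, with 18.5% at gene starts, 3.26% and 2.85% under H3K27me3, and 1486 genes with their start there. Leaving out members with another list's peak within 5 kb gave 20.4% of all. Gene starts took 9.05% where the region had to hold the start itself and 16.6% with all genes, and H3K27me3 covering at least 50% of the member gave 2.74% and 2.44%. Leaving out regions of at least 50% soft-masked bases, an alternative chosen after seeing the data, gave 3098 regions (18.8%) with 21.1% at gene starts. Merging up to 600 bp apart and reading ends as exclusive moved none of these results. What limits these values is the low count per member, the unknown depth, and the single mdxTLR4-/- library.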
